A study of Mus musculus with 6 samples.

Results

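Hotspot genes, as the term is used here, are host genes that gave rise to 10 or more different circular RNAs (circRNAs, or circles) in the aortas of ApoE-/- mice. They were selected on the measured reads themselves: exonic circles of the deposited table were kept, entries that shared chromosome, strand and end and whose starts differed by 1 base were summed, and the merged circles were counted per gene over all aortas. This gave 59 hotspot genes among 3610 host genes, with 772 of the 8521 merged circles. The samples were the aortas of male ApoE-/- mice on the C57BL/6 background, 3 mice per diet, 6 weeks old when the diets began and fed for 12 weeks either the chow diet, which the labels call a normal diet, or a high-fat diet (HFD) that also held cholesterol and cholic acid. Both diet groups lacked ApoE, so no wild-type aorta was compared. The labels describe enrichment of circRNA with RNase R, an exonuclease that digests linear RNA. Linear RNA was not analysed here.

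A circRNA forms when the spliceosome joins the end of a downstream exon (the donor) back to the start of an upstream exon (the acceptor). The only sequence that separates such a circle from the linear transcript is the junction, so reads across it, the back-spliced reads, are the measurement. One gene can use several acceptors and donors and so make many circles, and in many genes 1 of these, here called the dominant circle, takes a large part of the reads.

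The depth was small. Aortas 1 to 3 of the chow diet had 7015, 6596 and 6901 exonic back-spliced reads, and those of the HFD had 4413, 5239 and 4566, so 59.1% of them came from the chow diet. The choice of hotspot genes therefore leaned on the chow diet: 329 of the 772 circles had reads on the chow diet alone and 207 on the HFD alone. When every aorta was brought to the shallowest depth, 55 of the 59 genes with the most circles were the same. The tissue carried circles of smooth muscle genes such as Myh11, Myocd and Mylk.

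Junction sequences show what a hotspot consists of. Each is the RNA across 1 junction written as DNA, with the last bases of the donor exon in lower case and the first bases of the acceptor exon in capitals, taken from GENCODE vM21 transcripts (GRCm38). The first 4 are circles of Itga8, on the minus strand of chromosome 2, which joined 4 different donor exons to exon 3. They are shown because they share 1 acceptor: the capitals are the same in all of them, and only the donor side changes.
Itga8 exons 3 to 13, chr2:12230050-12265333: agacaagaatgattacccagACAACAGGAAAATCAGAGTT
Itga8 exons 3 to 11, chr2:12242411-12265333: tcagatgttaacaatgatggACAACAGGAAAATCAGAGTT
Itga8 exons 3 to 15, chr2:12200075-12265333: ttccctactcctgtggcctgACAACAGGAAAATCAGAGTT
Itga8 exons 3 to 9, chr2:12247510-12265333: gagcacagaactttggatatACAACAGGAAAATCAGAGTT
The next 2 share exon 3 of Abca1 as acceptor (minus strand) and are the circles of that gene with the most reads. The last 2, both on the plus strand, share a donor instead, exon 15 of Cped1, so that the lower case letters are the same and the capitals differ.
Abca1 exons 3 to 5, chr4:53127597-53133015: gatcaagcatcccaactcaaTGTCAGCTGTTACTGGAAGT
Abca1 exons 3 to 7, chr4:53107006-53133015: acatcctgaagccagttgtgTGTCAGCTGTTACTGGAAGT
Cped1 exons 11 to 15, chr6:22132229-22145687: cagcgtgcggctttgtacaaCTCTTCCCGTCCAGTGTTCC
Cped1 exons 7 to 15, chr6:22119462-22145687: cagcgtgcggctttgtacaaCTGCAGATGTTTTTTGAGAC

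The dominant circle of Itga8 was short enough to print whole. It holds exons 21 to 23 (chr2:12174153-12182751, minus strand), all coding sequence, and spans 254 bases. The capitals mark the first bases of exon 21, to which the last base printed is joined in the circle.
Itga8 exons 21 to 23: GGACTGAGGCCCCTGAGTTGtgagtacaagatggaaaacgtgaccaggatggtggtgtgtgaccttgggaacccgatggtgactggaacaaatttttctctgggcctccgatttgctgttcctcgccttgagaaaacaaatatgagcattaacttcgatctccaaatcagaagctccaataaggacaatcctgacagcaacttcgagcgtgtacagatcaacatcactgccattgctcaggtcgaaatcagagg

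The hotspot genes made up 1.63% of host genes, 9.06% of circles and 12.1% of exonic back-spliced reads. Among the other host genes, 1717 had 2 to 9 circles and 1834 had 1. The members spanned 10 to 39 circles with a median of 12. At the threshold, 20 genes had exactly 10 circles, and those with the most reads were Pde5a (212 reads), Asph (142) and Kat6b (124). Just outside it, with 9 circles, were Arhgap32 (421 reads), Rasa2 (307) and Mkln1 (155), which had more reads than most members. Counting circles with at least 2 reads, 14 genes had 10 or more, and counting circles in at least 2 aortas, 4 did.

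Dmd, which encodes the muscle membrane protein dystrophin, had the most circles, 39, on 82 reads. It was followed by Ltbp1, for a protein that binds latent TGF-beta (23 circles, 126 reads), Nox4, for an NADPH oxidase of the vessel wall (22 circles, 232 reads), Utrn, for the dystrophin relative utrophin (22 circles, 143 reads), and the histone methyltransferase gene Ash1l (20 circles, 74 reads). Birc6 (19 circles), Arhgap10 and Vwa8 (17 each), and Ubn2 and Rere (16 each) came next. Many circles did not mean many reads. Birc6 and Vwa8 reached 19 and 17 circles with 30 and 35 reads, whereas Cped1 had 381 reads, the most of any member, in 13 circles. The member with the most reads after Cped1 and Nox4 was Pde5a, which encodes the cyclic GMP phosphodiesterase of smooth muscle. Across all host genes, circles and reads per gene had a Spearman correlation of 0.76, where both rise with depth and expression and each circle holds at least 1 read. Within the 59 members it was 0.28.

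**Figure D1:**
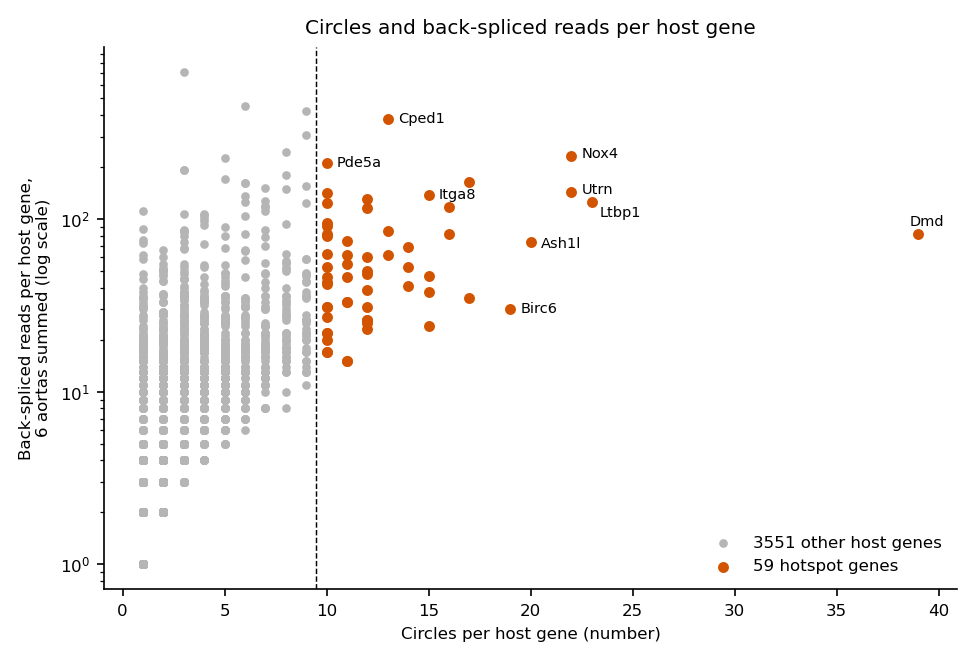
Each point is 1 host gene, with its number of circles on the horizontal axis and its back-spliced reads, summed over 6 aortas, on a log scale on the vertical axis. The 59 hotspot genes lie right of the dashed line at 10 or more circles, from 15 to 381 reads, and Dmd stands apart at 39 circles with 82 reads.

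Most of the circles were rare. Of the 772 circles, 308 (39.9%) rested on a single read and 461 (59.7%) were found in a single aorta. For genes with 2 to 9 circles these shares were 45.9% and 69.1%. All 6 aortas held reads of 39 hotspot circles, which came from 29 genes. In Dmd, 18 of 39 circles had 1 read and 30 were seen in 1 aorta, and in Birc6 18 of 19 were seen in 1 aorta. By contrast, in Arhgap10, which encodes a GTPase-activating protein, 5 of 17 circles were seen in 1 aorta. Names of a circRNA catalogue (mmu_circ) were given to 233 hotspot circles (30.2%), against 33.0% of circles of genes with 2 to 9 circles. Members differed here, and 4 had no catalogued circle at all.

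Hotspot genes were long and rich in exons, features that the choice did not use. Their median length was 195 kb and their longest transcript had a median of 28 exons, against 89.0 kb and 17 exons for genes with 2 to 9 circles and 49.2 kb and 13 exons for genes with 1. The members ranged from 26.4 kb (Flna) to 2257 kb (Dmd) and from 8 exons (Zeb1) to 146 (Syne1, a nuclear envelope spectrin gene). Within the members exon number and circle number had a Spearman correlation of 0.19. No test was made across genes. Members lay on 20 chromosomes, including Dmd, Flna and Diaph2 on X and Uty on Y.

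Most circles of hotspot genes shared a splice site with another circle of their gene. Of the 772 circles, 642 (83.2%) shared an acceptor or a donor with another circle of the same gene, against 64.4% for genes with 2 to 9 circles, in which fewer circles are present to share a site. The median member used 7 acceptors and 8 donors. In 49 members 1 acceptor served 3 or more circles, and in 34 members 1 donor did. Dmd, Ubn2 and Rere each had an acceptor with 7 circles. In Nox4, 21 of 22 circles shared a site, with 6 circles on 1 acceptor and 6 on 1 donor, and in Cped1 6 of 13 circles ended at 1 donor, exon 15. Reuse was low in Flna, where 4 of 14 circles shared a site and 13 acceptors and 13 donors were used, in Vps13b (4 of 12), Syne1 (6 of 15) and Nf1 (4 of 10). Of the 57 dominant circles whose exon numbers could be read, 16 started at exon 2, or 13 when ties for the most reads were broken the other way, and 3 (or 2) consisted of 1 exon, among them that of Kat6b (exon 2, 873 bases). In Pde5a the circle of exon 2 alone (589 bases) and that of exons 7 to 12 (648 bases) had 89 reads each. Dominant circles had a median length of 551 bases (586 with ties the other way) and reached 5075 bases in Ash1l, where the circle holds exons 2 and 3.

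**Figure D2:**
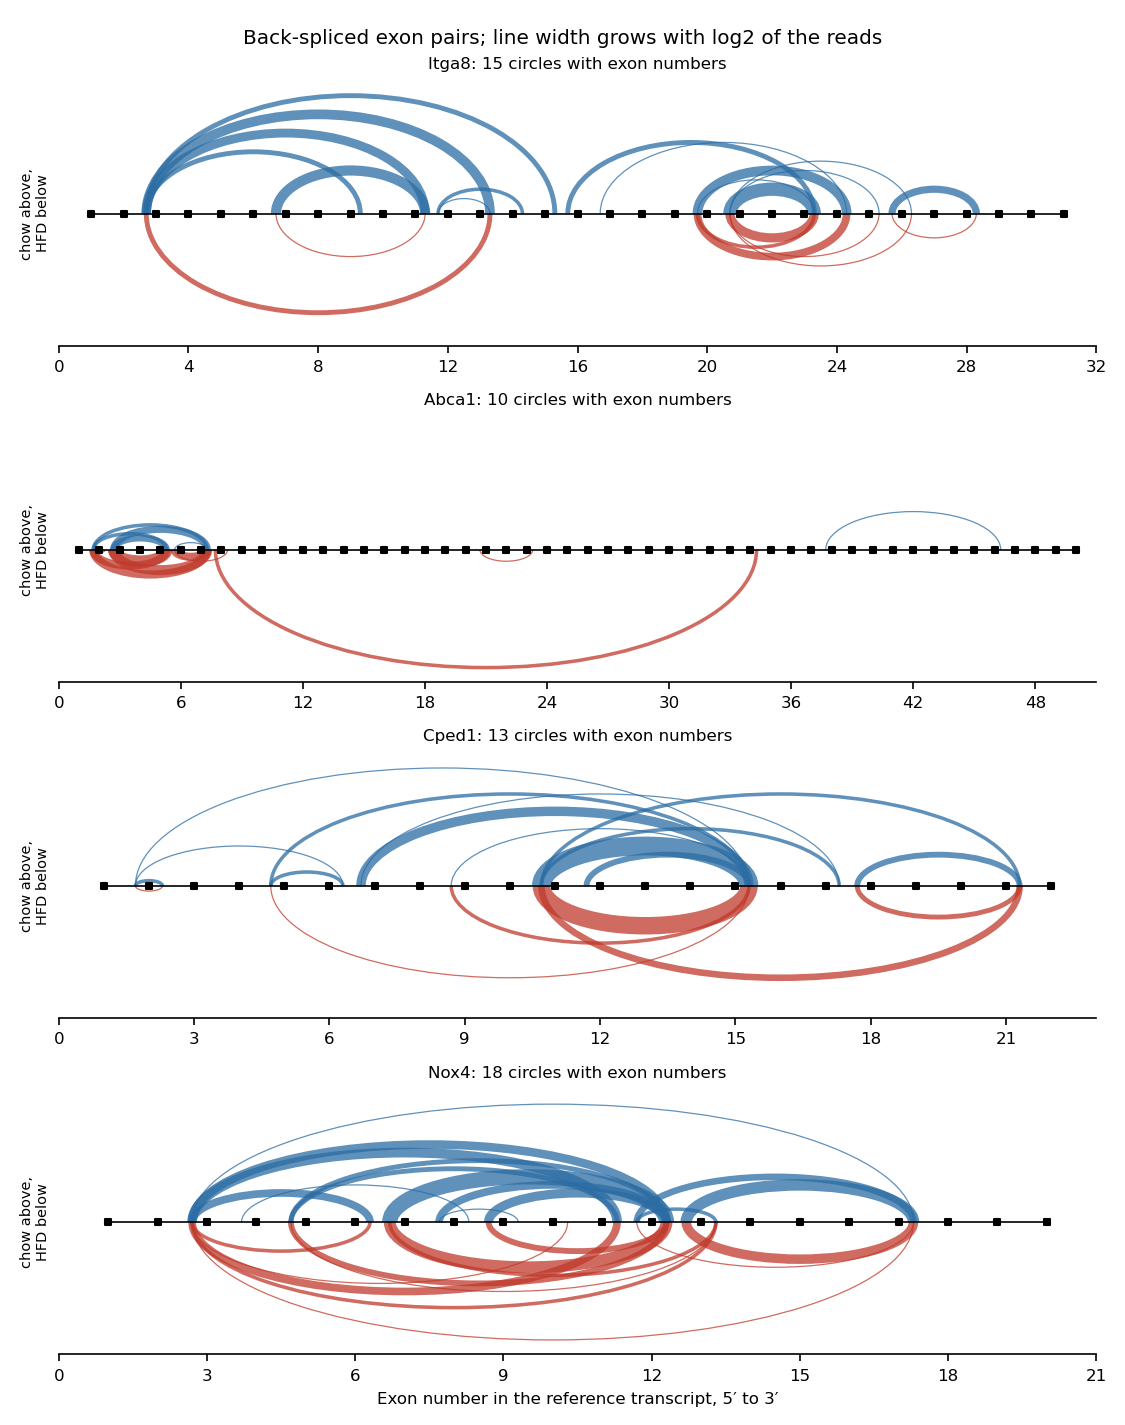
Arcs join the acceptor and donor exons of each circle in Itga8, Abca1, Cped1 and Nox4, with chow diet reads summed above the line, HFD reads summed below it, and the line width growing with log2 of the reads. The horizontal axis is the exon number of the reference transcript, so distances are exons and not bases. Of the 4 Itga8 circles from exon 3, 1 has an arc below the line. The Cped1 circle of exons 11 to 15 is thick on both sides, and 18 of the 22 Nox4 circles have exon numbers in this transcript.

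Most circles of nearly all members lay on annotated exon ends, and in Flna 4 of 14 did. Both ends of 97.5% of hotspot circles fell on ends of exons of GENCODE vM21 on the gene's strand, and 98.3% did for genes with 2 to 9 circles. Flna, which encodes the actin crosslinker filamin A, had 69 reads. Of these 64 came from circles off these ends, and the reads on annotated ends were 5. In Ubn2, 13 of the 117 reads were off annotated ends.

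The dominant circle took between 7.32% and 87.9% of a member's reads, with a median of 30.3%. This share falls with the number of circles by construction, and for genes with 2 to 9 circles its median was 54.5%. The dominant circle held over 50% of the reads in 4 members, Cped1, Thsd4, Asph and Utrn, and under 25% in 18. In 26 members it had reads in all 6 aortas. In 7 members, Dmd, Ltbp1, Birc6, Syne1, Pde5a, Nf1 and Dennd4c, 2 circles were tied for the most reads, and the circle whose name in the files sorts first was taken, an arbitrary choice. Among the members, the share had a Spearman correlation of 0.45 with reads and of -0.25 with circle number.

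Cped1, which encodes a cadherin-like protein, had the strongest dominance. Its circle of exons 11 to 15 (636 bases) had 60, 59 and 82 reads on the chow diet and 40, 48 and 46 on the HFD, 335 of 381 in all, and the next circle had 12. Thsd4, which encodes an extracellular matrix protein, had 63.5% of its 63 reads in the circle of exons 5 to 6. Asph, for an aspartyl hydroxylase of the endoplasmic reticulum, had 57.0% of 142 reads in the circle of exons 2 to 3 (219 bases), and Utrn had 52.4% of 143 reads in that of exons 61 to 65. Zeb1, which encodes a zinc finger repressor, followed at 49.5%.

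At the other end, the reads of Dmd were spread widely. Its first 2 circles had 6 reads each, 7.32% of its reads, and by the inverse Simpson index its reads were spread as over 26.7 equally frequent circles, against 1.29 for Cped1 and a median of 5.93. Syne1 (12.5% of 24 reads), Birc6 (13.3% of 30), Vwa8 (14.3% of 35) and Dennd4c (17.6% of 17) had the next lowest shares. Their dominant circles rested on few reads.

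**Figure D3:**
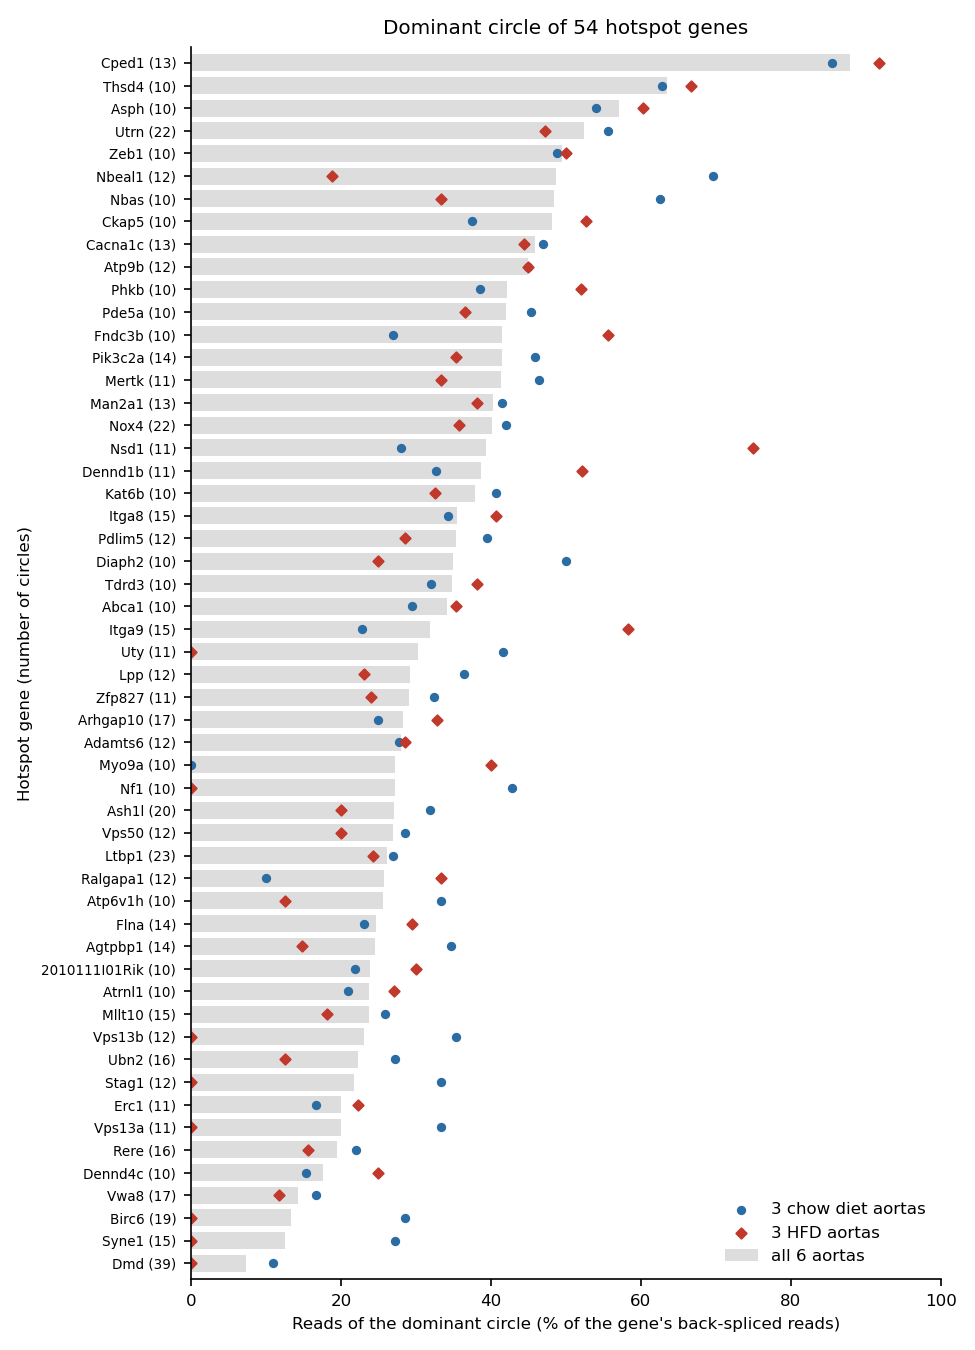
Shown are 54 of the 59 hotspot genes. Grey bars give the share of a hotspot gene's reads held by its dominant circle over 6 aortas, and points give the same share for the reads of 3 chow diet aortas or 3 HFD aortas. The names carry the circle number in parentheses, and the shares run from 7.32% in Dmd to 87.9% in Cped1. In some members, such as Vps13a, no HFD read came from the dominant circle. Where 2 circles were tied for the most reads, as in Dmd, the points are those of 1 of them.

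Whether the HFD went with a different weight of hotspot genes was asked of each aorta as a whole. They held 13.5%, 11.9% and 12.5% of exonic back-spliced reads in aortas 1 to 3 of the chow diet against 10.8%, 12.3% and 10.4% in those of the HFD. The 95% Wilson intervals, which cover counting error only, ran from 12.7% to 14.3% in chow diet aorta 1 and from 9.53% to 11.3% in HFD aorta 3. HFD aorta 2 lay within the chow diet range and the other HFD aortas below it. The means were 12.6% ± 0.816 (SD, n = 3) and 11.2% ± 1.02, a difference of -1.48 percentage points. It was -2.73 with entries as deposited, -3.01 for genes with 8 or more circles and -1.04 without chow diet aorta 1. The difference is a description without a test, since the members were chosen on the reads of these aortas and that choice leaned on the chow diet.

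The number of hotspot circles found was 319, 268 and 260 on the chow diet and 198, 230 and 204 on the HFD, but it follows depth. At an equal 4413 reads the expected numbers were 252, 221 and 213 on the chow diet and 198, 215 and 200 on the HFD. HFD aorta 2 again lay among the chow diet aortas. The means were 229 ± 20.7 and 204 ± 9.02 (SD, n = 3), and the difference of -24.8 circles is a description without a test, since the members were chosen by their number of circles over these aortas and that choice leaned on the chow diet. Without chow diet aorta 1 the difference was -13.1 circles. At an equal 474 reads of hotspot genes, it was -8.73 circles, and with genes chosen at equal depth -25.9.

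The median share of the dominant circle was 33.3%, 33.3% and 40.0% on the chow diet against 33.3%, 25.7% and 29.2% on the HFD. The means were 35.6% ± 3.85 and 29.4% ± 3.84 (SD, n = 3). The difference of -6.17 percentage points was -3.95 without chow diet aorta 3, -8.44 with entries as deposited and -5.33 with ties broken the other way. The dominant circles were named from these same reads, of which more came from the chow diet. This weights the comparison towards the chow diet, so the difference is a description without a test. Pooled over the members' reads, the share was 39.0%, 38.7% and 44.3% on the chow diet and 39.5%, 37.4% and 39.5% on the HFD, a difference of -1.92 percentage points.

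**Figure D4:**
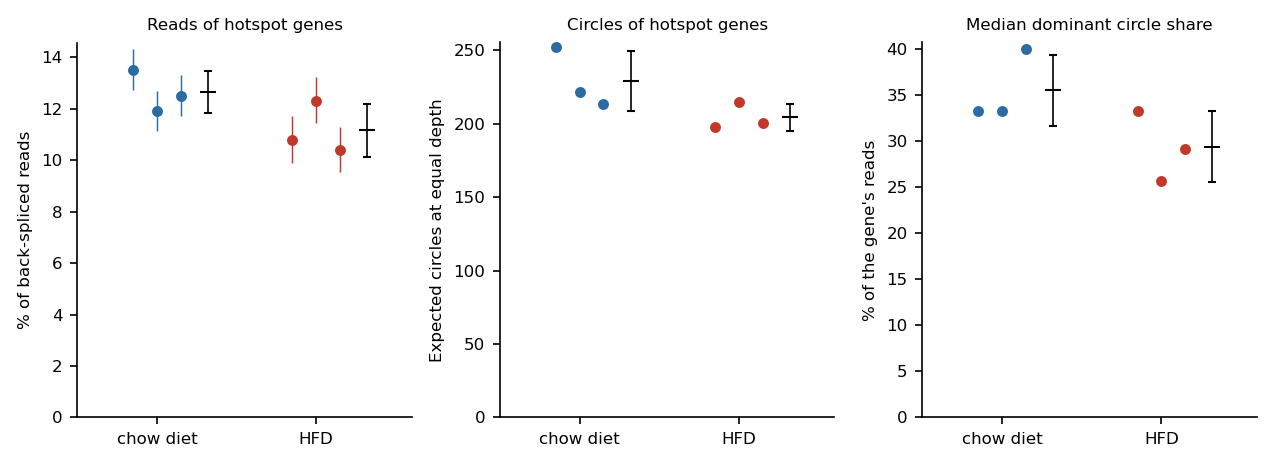
Each point is 1 aorta, and the bar beside each diet is the mean with 1 SD (n = 3). The panels show the reads of hotspot genes as a percentage of exonic back-spliced reads with 95% Wilson intervals, the hotspot circles expected at 4413 reads, and the median share of the dominant circle over members. HFD aorta 2 lies within the chow diet range in the left and middle panels, and HFD aorta 1 equals 2 chow diet aortas in the right panel.

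Gene by gene, the reads of a member's circles were summed and tested between the diets in a fit of all 2100 host genes with reads in at least 2 aortas (edgeR quasi-likelihood test, Benjamini-Hochberg adjustment). All 59 members were tested. Adjusted p-values were under 0.05 for 2 of them, Abca1 and Itga8, and for 4 of all host genes tested (0.19%). By an unadjusted p under 0.05 with an absolute log2 fold change above 1, 5 members were lower on the HFD, where 2.76% of all host genes tested were, and 1 was higher, where 1.43% were. This balance moved with the scaling: with library size alone, 3 members were lower, where 1.95% of all host genes were, and 3 were higher, Abca1, Ckap5 and Ralgapa1, where 1.9% were. Without HFD aorta 1 or HFD aorta 3, 3 were higher too. Members have more reads than most host genes, which makes calls easier: among the 555 host genes with at least 15 reads, the fewest of any member, 6.49% were called, against 10.2% of members. Circles with reads on 1 diet alone counted towards the choice of members, so these shares are a description. The log2 fold changes of members ran from -1.71 to 2.26 and 40 were below 0 (67.8%), against 53.2% of all host genes tested. The medians were -0.32 and -0.15. For the 555 host genes with at least 15 reads the median was -0.24, nearer to that of the members. The median of all host genes moved with the scaling, by 0.15, and the members' median minus it was -0.17 with TMM and -0.16 with library size alone. This difference depended on single aortas and on the filter. It was -0.089 without chow diet aorta 1, -0.26 without chow diet aorta 3, -0.38 without HFD aorta 2, -0.27 without HFD aorta 3 and -0.033 with every host gene tested. Without the dominant circles it was -0.079, for genes of 15 or more circles -0.35, and for the 4 genes with 10 or more circles in at least 2 aortas -0.70. In bulk aortas, fewer cells of a type and less RNA per cell cannot be told apart.

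Abca1, which encodes the transporter that exports cholesterol from cells to apolipoprotein A-I, rose on the HFD. Its 10 circles had 7, 6 and 4 reads on the chow diet against 18, 30 and 17 on the HFD. Every HFD aorta was above every chow diet aorta, and the normalized reads were 5.05 ± 1.42 and 24.5 ± 6.08 (SD, n = 3). The log2 fold change was 2.26 (SE 0.48, edgeR adjusted p = 0.00248). Without chow diet aorta 1, chow diet aorta 2 or HFD aorta 2 the adjusted p of Abca1 was 0.151, 0.586 and 0.116, at log2 fold changes of 2.43, 2.32 and 2.04.

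The rise of Abca1 was spread over several circles. The dominant one, exons 3 to 5, had 4, 0 and 1 reads on the chow diet and 6, 13 and 4 on the HFD. The circle of exons 3 to 7 had 1, 3 and 2 reads and then 5, 6 and 3, and that of exons 2 to 7 had 1, 1 and 0 and then 2, 3 and 3. Of its 10 circles, 5 ended at exon 5 or 7 and began at exon 2, 3 or 6, at the 5' end of a gene of 50 exons. Without the dominant circle the log2 fold change of the gene was 2.06 (edgeR adjusted p = 0.252).

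Itga8, which encodes the integrin alpha-8 subunit carried by smooth muscle cells, fell on the HFD. Its 15 circles had 42, 28 and 41 reads on the chow diet against 7, 14 and 6 on the HFD. The diets did not overlap, and the normalized reads were 32.8 ± 6.32 and 10.1 ± 4.02 (SD, n = 3), a log2 fold change of -1.67 (SE 0.39, edgeR adjusted p = 0.0139). The adjusted p of Itga8 was over 0.05 when any aorta but HFD aorta 2 was left out, between 0.106 and 0.633, and the log2 fold change stayed between -2.05 and -1.44. With DESeq2 it was 0.192 and with library size alone 0.069.

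The printed circle of Itga8, exons 21 to 23, had 13, 7 and 18 reads on the chow diet and 3, 6 and 2 on the HFD. Of the printed circles that start at exon 3, that of exons 3 to 13 had 5, 5 and 3 reads and then 0, 1 and 2, and that of exons 3 to 11 had 0, 5 and 5 and then none. Without the dominant circle the log2 fold change of the gene was -1.89 (edgeR adjusted p = 0.1).

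Other members changed at the unadjusted threshold, with adjusted p-values of 0.556 or more in the edgeR fit. Thsd4 had 21, 12 and 18 reads on the chow diet and 2, 7 and 3 on the HFD, with no overlap (log2 fold change -1.71, SE 0.58). Without its dominant circle it did not pass (-1.87). Phkb, which encodes a subunit of phosphorylase kinase, had 26, 13 and 31 and then 7, 9 and 9 (-1.10, SE 0.45). Phkb was no longer past the unadjusted threshold with DESeq2, limma or library size alone, nor without chow diet aorta 1, chow diet aorta 3 (-0.78) or HFD aorta 1. Flna had 23, 15 and 14 reads and then 3, 10 and 4 (-1.25, SE 0.53), but on annotated exon ends it had 0, 0 and 2 and then 1, 0 and 2, and with such circles alone the log2 fold change was 0.86. Flna was also not past the threshold with DESeq2 or without chow diet aorta 1, HFD aorta 1 (-0.88) or HFD aorta 3.

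Nox4 and Ltbp1 had an unadjusted p under 0.05 with smaller differences. Nox4 had 54, 43 and 65 reads on the chow diet and 31, 22 and 17 on the HFD, without overlap after normalization (-0.83, SE 0.30, edgeR adjusted p = 0.712). Without HFD aorta 1 it was past the unadjusted threshold with the fold change limit (-1.03). Its circle of exons 7 to 12 went from 20, 20 and 28 reads to 9, 9 and 7. Ltbp1 had 36, 20 and 33 and then 16, 12 and 9 (-0.88, SE 0.39, edgeR adjusted p = 0.712), with overlap after normalization. After Abca1, the members with the lowest p among log2 fold changes above 0 were Ralgapa1, Ckap5, Zeb1 and Myo9a, of which none passed in this fit. Ralgapa1 had 4, 1 and 5 and then 12, 4 and 5 reads (1.43, SE 0.76), and Ckap5 had 2, 5 and 1 and then 3, 14 and 2 (1.52, SE 0.83). In both, a single HFD aorta held the most reads: without HFD aorta 1 the log2 fold change of Ralgapa1 was 0.85, and without HFD aorta 2 that of Ckap5 was 0.32. That of Ckap5 was 2.31 without chow diet aorta 2. Both passed the unadjusted threshold with library size alone (1.59 and 1.67) and without HFD aorta 3. Ralgapa1 also passed it among host genes with at least 10 reads and without chow diet aorta 3 or HFD aorta 2, and Ckap5 and Myo9a did without HFD aorta 1. Zeb1 had 14, 15 and 12 and then 18, 19 and 13 (0.65, SE 0.43), and Myo9a, which encodes an unconventional myosin, had 2, 2 and 3 and then 2, 7 and 6 (1.40, SE 0.93).

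Of the 59 members, normalized reads did not overlap between the diets in 11 that were lower on the HFD, where 5.76% of all host genes tested were. They did not overlap either in 3 that were higher, Abca1, Zeb1 and Lpp, where 3.71% were. Members have more reads than most host genes, and these counts were not compared at like reads. Lpp encodes a focal adhesion protein of smooth muscle. The 11 were Itga8, Thsd4, Nox4, Phkb, Flna, Cped1, Atp9b, Nsd1, Uty, Itga9 and Dennd4c, of which Nsd1, Uty and Dennd4c had 33, 33 and 17 reads. Cped1, the member with the most reads, had 74, 69 and 92 reads on the chow diet and 45, 54 and 47 on the HFD, and its log2 fold change of -0.32 (SE 0.25, edgeR adjusted p = 0.784) was small. The genes with the most circles, Dmd (-0.64), Utrn (-0.40) and Ash1l (-0.18), and the member Dennd1b (-0.83), whose 75 reads were 21, 17 and 14 and then 4, 14 and 5, did not pass either threshold. The reads of Dennd1b are a sum over 11 circles, which does not speak for any single circle of the gene.

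**Figure D5:**
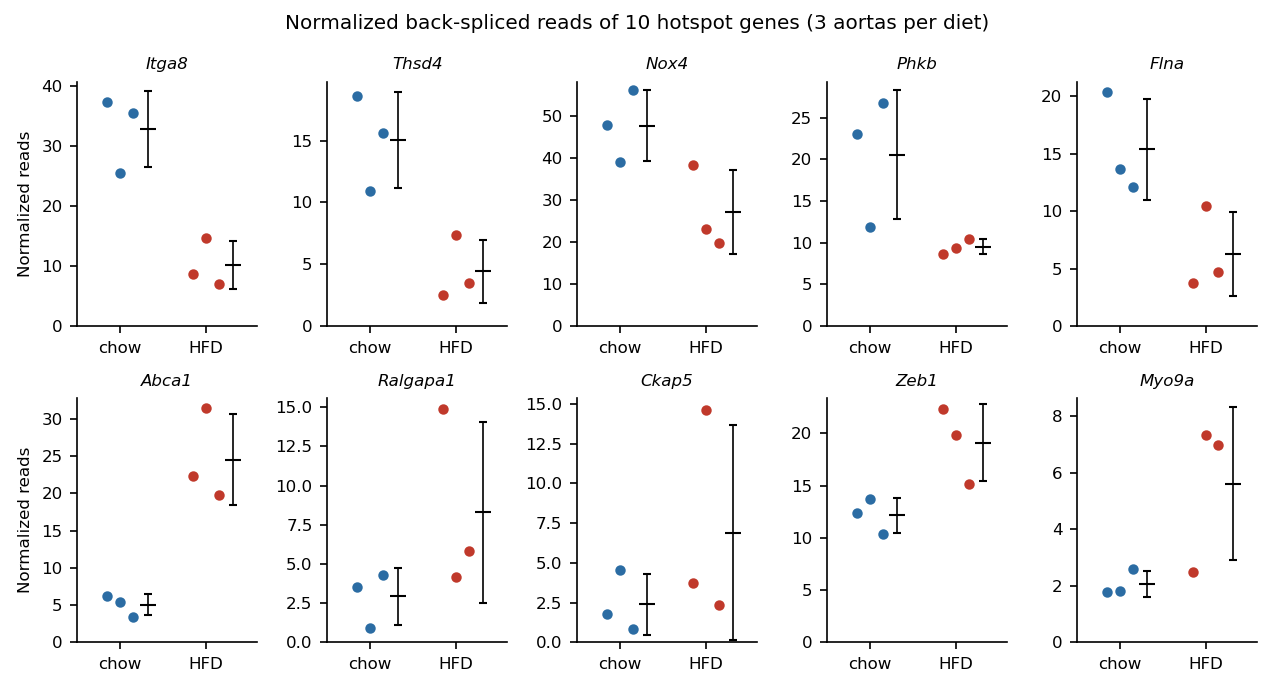
Points are the normalized back-spliced reads of 1 aorta, with chow diet left and HFD right, and bars are the mean with 1 SD (n = 3) for the 5 members with the lowest p in each direction. The vertical axes start at 0 and differ between panels. Itga8, Thsd4, Nox4, Phkb, Flna, Abca1 and Zeb1 do not overlap between the diets, and in Ralgapa1 and Ckap5 1 HFD aorta lies far above the others.

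Some lists of cell type markers differed between the diets beside these results. The normalized back-spliced reads of 7 smooth muscle marker genes with circles, of 8 listed, summed to 53.8 to 77.1 on the chow diet and 24.5 to 44.7 on the HFD. Itga8 and the calcium channel gene Cacna1c are on this list, and without these members the sums were 16.4 to 24.2 and 8.15 to 21.1, which overlap. Those of 8 adipocyte markers of 14 were 16.9 to 34.7 and 7.32 to 11.2, which do not overlap, with no circle of Plin1 or Ucp1. For 9 leukocyte markers of 12 the sums were 5.20 to 11.5 and 6.20 to 14.6, for 3 endothelial markers of 10, with none from Cdh5 or Kdr, they were 1.82 to 4.33 and 3.14 to 9.32, and for 3 fibroblast markers of 8, with none from Pdgfra or Dcn, they were 2.60 to 3.55 and 4.18 to 7.45, without overlap. For 3 striated muscle markers of 11 they were 0 to 6.21 and 0 to 11.6. Most of the lists have few circles, and their part in the results of the members was not tested.

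The remaining members are given by role, in groups that were drawn up after the values were seen and were not tested as groups. The 7 genes of matrix, adhesion and receptors were Ltbp1, Thsd4, Itga8, Itga9, the protease gene Adamts6, the receptor tyrosine kinase gene Mertk, which serves the uptake of dying cells, and Atrnl1. Their normalized reads summed to 120, 96.7 and 116 on the chow diet against 58.3, 65.9 and 46.6 on the HFD. The diets did not overlap, nor did they for the groups of chromatin and of membrane traffic below. Of the 7 log2 fold changes 6 were below 0 (median -0.94), where 53.2% of all host genes tested were. Atrnl1 was the exception, with 10, 23 and 10 reads and then 9, 15 and 13 (0.13). Itga8 and Thsd4 were called lower, where 2.76% of all host genes tested were. The list of matrix genes below, which holds no member, had a median of 0.91 over its 7 tested genes.

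The 11 genes of chromatin and transcription held 144 circles and 793 reads, and included Ash1l, Nsd1, Kat6b, Ubn2, Rere, Mllt10, Zeb1, Zfp827, the cohesin gene Stag1 and the histone demethylase relative Uty. Of the 11, 10 had a log2 fold change below 0, where 53.2% of all host genes tested did. Zeb1 did not, and none of the 11 was called (median -0.55). Kat6b, a histone acetyltransferase gene, had 22, 27 and 32 reads on the chow diet against 10, 19 and 14 on the HFD (-0.55), which did not pass either threshold. The 10 genes of membrane traffic had fewer reads, 15 to 75 each. They included Vps13a and Vps13b, whose proteins carry lipids between membranes, Vps50, Nbas, Pik3c2a, Erc1, Atp6v1h, Atp9b and the Rab regulators Dennd1b and Dennd4c, and 8 of 10 were below 0 (median -0.48) without a call. Vps50 had 15 of its 26 reads in chow diet aorta 1.

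The other groups lay closer to 0. The 9 genes of muscle cytoskeleton and actin ran from -1.25 in Flna to 1.40 in Myo9a (median 0.25), and Syne1 (24 reads) and the formin gene Diaph2 (20) had few reads. Among 8 genes of signalling, channels and transport, Abca1 and Phkb were called in opposite directions, and Pde5a, with 52, 54 and 24 reads on the chow diet against 24, 34 and 24 on the HFD (-0.31), overlapped between the diets, as did Arhgap10, with 29, 34 and 33 against 23, 21 and 23 (-0.15), after normalization. Ralgapa1 and Nf1, which encode GTPase-activating proteins, had 31 and 22 reads. The 6 enzymes of sugar chains and protein modification, among them Man2a1, Asph, Agtpbp1 and Birc6, had a median of 0.31. Of the 8 others, which included Cped1, Vwa8, Nbeal1, Fndc3b, Tdrd3, 2010111I01Rik and Ckap5, none was called, and their median was -0.01.

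Of the lists of genes by function, that of the smooth muscle contractile apparatus and cytoskeleton held the most members. Of its 23 genes, 18 had circles and 5 were members, Dmd, Utrn, Flna and Pdlim5 among them. Of the 15 of them that were tested, 1 (Flna) was lower and none was higher, where 2.76% and 1.43% of all host genes tested were. The median log2 fold change was -0.56, and most reads of Flna were off annotated exon ends. Of 14 ion channel and calcium handling genes, 12 had circles and 1, Cacna1c, was a member. Cacna1c had 16, 13 and 20 reads on the chow diet and 12, 16 and 8 on the HFD (-0.08). Of 11 genes of this list that were tested 1 was lower, Ano1, which is no member, where 2.76% of all host genes tested were, and the median was -0.56. Of 16 chromatin and ubiquitin genes, all had circles and 2, Birc6 among them, were members. Of its 15 tested genes 1 was higher, Arid1b, which is no member, where 1.43% of all host genes tested were, and the median was 0.46. None of 8 circle-bearing regulators of circle formation, 11 widely studied circRNA hosts or 9 matrix genes reached 10 circles. Hipk3, a widely studied host, had 171 reads in 5 circles. Of these 3 lists no gene was called, and the medians were 0.01 for 5 regulators, 0.70 for 9 studied hosts and 0.91 for 7 matrix genes tested, against -0.15 for all host genes.

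Single circles of hotspot genes were tested in a fit of 2540 circles. Of the 772 hotspot circles, 311 had reads in at least 2 aortas and were tested, and 19 (6.11%) were called at an unadjusted p under 0.05 with an absolute log2 fold change above 1, 15 of them lower on the HFD and 4 higher. Of all circles tested 2.95% were called. Of the 19, 13 had reads on 1 diet only and so entered the test through that diet alone, and these shares are a description. With circles chosen instead by at least 10 reads over the 6 aortas, 12 of 94 hotspot circles (12.8%) were called, 10 of them lower, against 6.39% of all circles with that many reads, and 6 of the 12 had reads on 1 diet only. No hotspot circle had an adjusted p under 0.05 by edgeR, with 19 at an unadjusted p under 0.05 and a smallest adjusted p of 0.252. The DESeq2 fit called 5, and none passed its adjustment.

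The circle with the smallest p was 1 of Pdlim5, which encodes a PDZ and LIM domain protein of actin filaments. It joined exon 7 to exon 4 (chr3:142303943-142314448, minus strand) and had 8 and 6 reads in HFD aortas 2 and 3 and no read elsewhere. The other circles of Pdlim5 included that of exons 8 to 9, with 10, 11 and 11 reads on the chow diet and 4, 9 and 1 on the HFD. In the other direction, the Phkb circle of exons 3 to 5 had 5, 5 and 6 reads on the chow diet and none on the HFD, and the Cped1 circle of exons 7 to 15 had 4, 3 and 5 and then none. The dominant circles of Itga8, Thsd4 and Nox4 were among the 19.

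Whether circles of a member changed in proportion to each other was tested with the share of each circle in its gene (edgeR diffSpliceDGE). Of 307 hotspot circles tested, 12 (3.91%) had an unadjusted p under 0.05, where 2.81% of all 1532 circles tested did. All 12 had reads on 1 diet only and entered the test through that diet alone, so their number is a description. None passed adjustment. The smallest adjusted p, 0.096, was that of the Pdlim5 circle of exons 4 to 7, followed by the Phkb and Cped1 circles and by a Cacna1c circle that had no chow diet read and 4, 3 and 0 reads in HFD aortas 1 to 3. Among circles with at least 10 reads over the 6 aortas, 3 of 80 hotspot circles (3.75%) had an unadjusted p under 0.05, where 5.24% of all such circles did, and these 3 too had reads on 1 diet only. There 1 hotspot circle passed adjustment, and without HFD aorta 1 also 1.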

How the data were processed

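The deposited table lists circRNAs of 6 aortas with counts and a signal. The authors used Cutadapt for trimming, TopHat-Fusion for back-splices, and CIRCexplorer together with CIRI for calling circRNAs. How the callers were combined and the genome build are not given in the sources used here. The deposited counts are back-spliced reads without normalization. The deposited signal is the authors' SRPBM, counts divided by a depth per library, and served only to recover this depth. The authors' fold changes and p-values were not used.

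Of 10023 entries, 932 intronic and 99 intergenic ones were left out, and 471 of the 8521 merged circles joined 2 entries. Counts per gene, per circle and per circle within its gene were tested with edgeR 4.0.16 (TMM, quasi-likelihood, R 4.3.3) for features with reads in at least 2 aortas, without a replicate block. For normalized reads, each count was scaled to the mean effective library size. Values of a whole aorta were compared between the diets without a test. The numbers of the aortas mark different mice, and same-numbered aortas did not deviate together (correlations -0.019 to -0.064). DESeq2 1.42.0 and limma 3.58.1 were alternatives. Scripts were tested on simulated data. The dominant circle is the 1 with the most reads over 6 aortas or, in a tie, the tied circle whose name sorts first. Named genes were the members with the most circles and reads, the highest and lowest dominant shares and the 5 lowest p in each direction, any member past an adjusted p of 0.05, those next to the threshold, and members of the lists. The members and lists were chosen with earlier results of these data known. PCR duplicates cannot be told from molecules in these counts, and intervals cover counting error only. Some members are not reported by name here.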

Additional observations from a re-analysis of the deposited data

How the results depend on the processing

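The direction of all 10 gene-level log2 fold changes named for diet held under every setting run, with 1 exception: Flna turned to 0.86 with circles on annotated exon ends alone, a setting chosen after seeing the data. Abca1 had an adjusted p under 0.05 in 13 of 17 alternatives and Itga8 in 9. The 6 members called became 3 with DESeq2, 10 with entries as deposited, 11 at 8 or more circles, 1 at 15 or more and 1 when only circles in at least 2 aortas counted, and lay between 3 and 9 when an aorta was left out. The 2 members past an adjusted p of 0.05 became 1 with DESeq2, 1 with library size alone, 0 without the dominant circle, 1 at 15 or more circles, 1 with circles in at least 2 aortas, and 0 to 1 with an aorta left out. Of all host genes, the 4 past it became 2 with DESeq2, 2 with library size alone, 0 without the dominant circle and 0 to 4 with an aorta left out. The median of all host genes turned to 0.0072 with DESeq2 and 0.0049 with library size alone. The 19 circles called became 5 with DESeq2, 12 at 10 reads or more, and 9 to 15 with an aorta left out, and 1 circle passed adjustment with entries as deposited. The 12 circles with an unadjusted p under 0.05 for their share became 3 at 10 reads or more, where 1 passed adjustment, 19 with entries as deposited, and 4 to 9 with an aorta left out, where 0 to 1 passed adjustment. With the replicate block, 9 circles were called and 4 had an unadjusted p under 0.05 for their share, and it changed no other count of calls by over 1.5 times. The numbers do not pair the mice. The differences between diets in share of reads (-3.01 to -0.81 percentage points), circle number (-71.7 to -8.73) and dominant share (-10.1 to -1.92 percentage points) kept their sign under the alternatives run, including 2 added after seeing the data, the choice of genes at equal depth (-2.19, -25.9 and -7.08) and, for the dominant share, ties for the most reads broken the other way (-5.33). The cause of the differences between settings was not tested. The members had 15 to 381 reads each.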
